A study of Mus musculus with 4 samples.

Results

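The genes described here are 8 genes known from antibody-secreting plasma cells, Prdm1, Xbp1, Mzb1, Jchain, Sdc1, Pou2af1, Cd38 and Ell2, read in T helper (Th) cells. All non-control probes whose transcript belongs to one of them were taken, which gave 11 of the 41173 probes and 8 of the 18749 genes of the array. The genes were chosen with their levels on these arrays already known, so those levels are given as a description and no test was made on them. Plasma cells are the end stage of the B cell lineage. Their programme is switched on by Blimp-1, the transcriptional repressor encoded by Prdm1, while Xbp1 enlarges the secretory pathway and other genes serve antibody assembly and export. Bach2 is a transcriptional repressor best known for holding Prdm1 down in B cells, and Blimp-1 is also made by effector T cells, where it restrains cytokine and survival genes.

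Naive CD4 T cells (CD44low CD62Lhigh CD25negative) came from the spleens of C57BL/6J mice, all labelled female, that were either WT or labelled Bach2 KO, the latter Bach2 flox/flox with a CD4-Cre transgene. Cre driven by the Cd4 promoter deletes the floxed gene in developing T cells. All 4 cultures received mAbs against TCR-β (3 μg/ml) and CD28 (1 μg/ml) for 2 days, followed by 3 days with IL-2 at 2.5 ng/ml. They were read either at that point, written here as (−), or after a further 4 h on immobilized anti-TCR-β mAb with no exogenous IL-2, written (+). Each of the 4 conditions, WT (−), Bach2 KO (−), WT (+) and Bach2 KO (+), had 1 one-colour microarray, so no difference below has a replicate check and none carries a p-value. The number of arrays limits the precision. The RNA came from whole cultures, in which more cells of a type and more RNA per cell cannot be told apart.

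A level is given as a scaled signal, the processed signal divided by the 75th percentile of all probes of its array. That percentile lay between 313 and 436 signal units, the lowest signals well above background between 14.5 and 17.2, and no spot was saturated. The scanner software put the error of the levels quoted for the 8 genes at 10% to 21.3% of the signal where they were well above background. Before the results, 2 checks of the labels are needed. The probe for Bach2 differed by -0.15 (log2) between Bach2 KO and WT before re-stimulation and by -0.28 after it, and where the probe lies relative to the floxed part was not known, so it does not settle the genotype labels. Of 4 Y-linked genes, 3 were well above background on both Bach2 KO arrays and none on either WT array. This goes against the label female for the Bach2 KO cells. The paper states that its in vitro experiments used mice of both sexes. Genotype and sex of the donors cannot be told apart. All 13 T cell genes listed, among them Cd3e, Cd4 and Lck, were well above background on all 4 arrays, and none of them differed by 2-fold in any comparison.

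Prdm1, Mzb1, Jchain and Ell2 were at least 2-fold higher on the Bach2 KO array than on the WT array before re-stimulation, and the same 4 genes with Sdc1 were so after it. Mzb1 and Jchain differed by over 20-fold at both times and hardly moved on re-stimulation. Pou2af1 and Ell2 were 19.0-fold to 35.8-fold higher after re-stimulation, Pou2af1 to the same extent in both genotypes. Sdc1 reached a scaled signal above 1 only on the Bach2 KO (+) array, Xbp1 differed little anywhere, and Cd38 was well above background on none of the arrays. Thus 7 of the 8 genes could be compared. Each of these 7 was well above background on all 4 arrays on the probe read for it. None of their differences from that probe was therefore set by a floor. Some levels still lay close to it, such as Mzb1 on the WT (+) array, at 16.3 against a lowest measurable signal of 14.5.

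**Figure D1:**
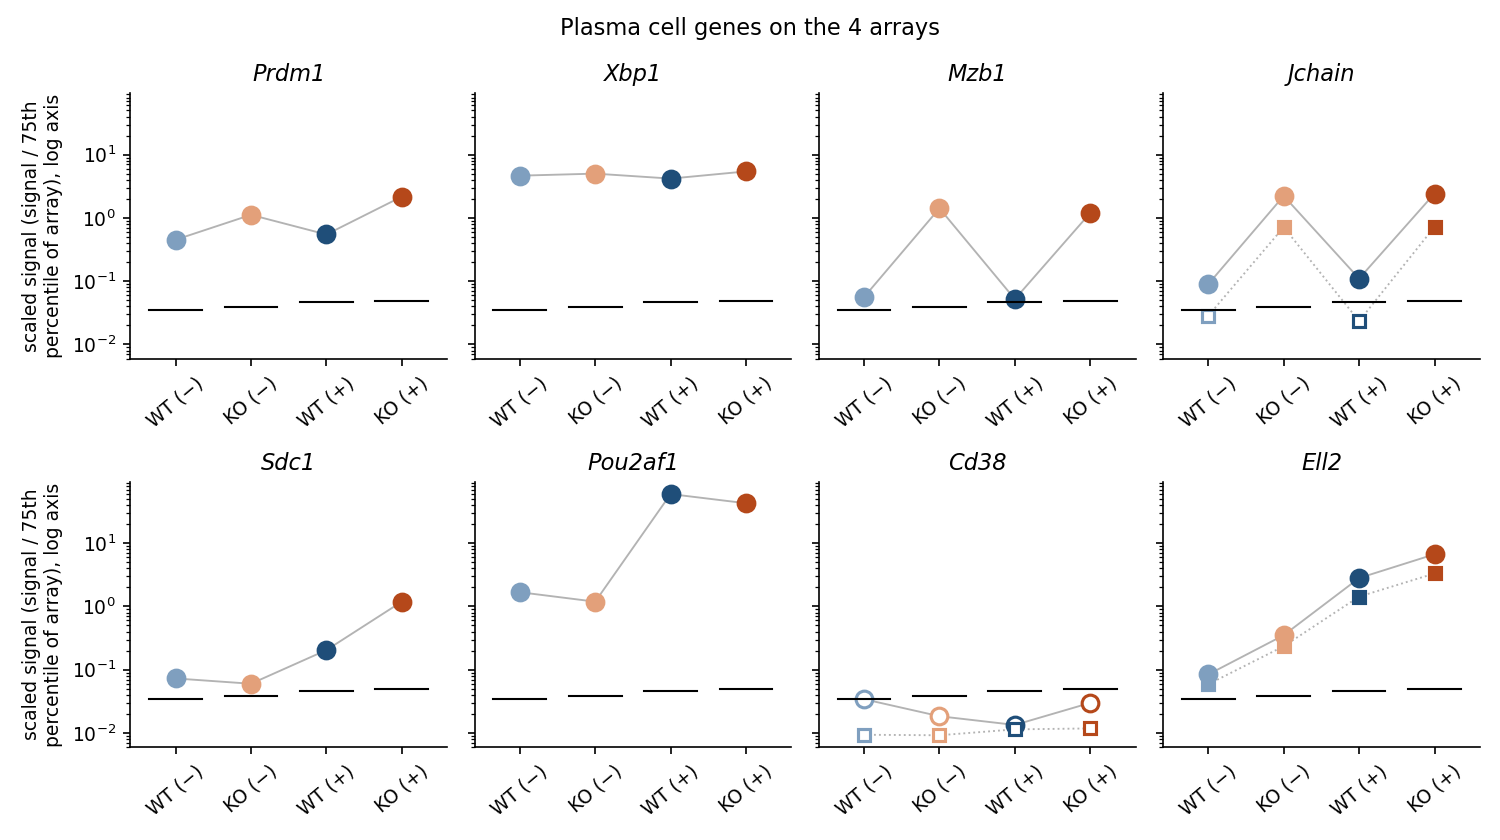
Scaled signal of each of the 8 genes on the 4 arrays, on a log axis. Circles are the probe read for the gene, squares a second probe, open symbols are probes not well above background, and the black dashes mark the lowest value well above background on each array (0.0347 to 0.0489). Mzb1 and Jchain separate by genotype, Pou2af1 and Ell2 by re-stimulation, and Cd38 stays at or below the dashes.

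Prdm1 encodes Blimp-1, the zinc finger repressor that ends the B cell programme and, in T cells, limits IL-2 production. Its probe (transcript NM_007548) gave a scaled signal of 0.452 on the WT (−) array, 1.12 on the Bach2 KO (−) array, 0.548 on the WT (+) array and 2.17 on the Bach2 KO (+) array. Both Bach2 KO arrays thus lay above both WT arrays. The difference between genotypes was 1.31 on the log2 scale (2.48-fold) before re-stimulation and 1.98 (3.96-fold) after it. Re-stimulation went with a log2 difference of 0.28 in WT cells and 0.95 in Bach2 KO cells, the latter 1.93-fold and so just under the 2-fold rule.

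The promoter of Prdm1 is shown because Bach2 and AP-1 proteins such as Batf bind sites of the AP-1 type. Promoter sequences here are the 250 bases before the start of each gene, from RefSeq on the GRCm38.p6 build, 5′ to 3′ on the strand of the gene. They were found for 7 of the 8 genes, all but Mzb1. Both strands were searched for TGANTCA, a loosened form of the AP-1 letters TGAGTCA that allows any base at the centre. It had 1 match among these 7 promoters, in Prdm1, set in capitals.
Prdm1 promoter, chr10:44458749-44458998, minus strand: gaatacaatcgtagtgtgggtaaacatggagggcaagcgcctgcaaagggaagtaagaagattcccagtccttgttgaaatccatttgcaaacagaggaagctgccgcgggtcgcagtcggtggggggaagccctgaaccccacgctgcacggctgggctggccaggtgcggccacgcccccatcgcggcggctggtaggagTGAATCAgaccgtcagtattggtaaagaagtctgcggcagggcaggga
The match reads TGAATCA and begins 48 bases before the start of the gene. With A at its centre it is not the AP-1 consensus TGA(G/C)TCA that the paper gives. TGANTCA was present in 6.75% of 32851 promoters of the same length and TGAGTCA in 4.46%, the latter in none of the 7. The letters AGNGAAAG, to which Blimp-1 itself binds, were in 7.3% of promoters and in none of the 7. These matches describe the letters of one short window and are not sites shown to be bound.

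Mzb1 encodes a chaperone of the endoplasmic reticulum that helps fold and export antibody in marginal zone B cells and plasma cells. Its probe (transcript NM_027222) is printed 10 times on the array, which makes it the best measured of the 8 genes within an array. The scaled signal was 0.0561 on the WT (−) array, 1.42 on the Bach2 KO (−) array, 0.0521 on the WT (+) array and 1.20 on the Bach2 KO (+) array. Its spots gave signals from 587 to 651 on the Bach2 KO (−) array and from 389 to 440 on the Bach2 KO (+) array. On the WT (−) array 9 spots could be used and ranged from 19.4 to 32.3. On the WT (+) array they ranged from 11.0 to 21.8 and 6 of 10 were well above background. No spot of a WT array therefore came near the lowest spot of a Bach2 KO array, although the spots of an array share 1 RNA and are not replicates of the condition. The difference between genotypes was 4.66 (log2, 25.3-fold) before re-stimulation and 4.52 (23.0-fold) after it, where the SD between spots was at most 0.39 (log2) on any array.

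Jchain encodes the joining chain, the small protein that links antibody units into IgM pentamers and IgA dimers. The probe read for it (transcript NM_152839) gave scaled signals of 0.0899 on the WT (−) array, 2.23 on the Bach2 KO (−) array, 0.110 on the WT (+) array and 2.43 on the Bach2 KO (+) array. Both Bach2 KO arrays were again far above both WT arrays, by 4.63 (log2, 24.8-fold) before re-stimulation and 4.46 (22.0-fold) after it. A second probe of the same transcript was well above background on the Bach2 KO arrays alone. It gave a difference of at least 20.6-fold before re-stimulation and at least 15.6-fold after it, taking the lowest measurable value of the WT array as the bound. Among all genes compared, Mzb1 ranked 11 and Jchain 14 from the top of the difference between genotypes before re-stimulation, out of 12136, and 16 and 19 after it, out of 12348. The promoter of Jchain is printed for comparison with that of Prdm1, since Jchain differed most between genotypes together with Mzb1.
Jchain promoter, chr5:88527898-88528147, minus strand: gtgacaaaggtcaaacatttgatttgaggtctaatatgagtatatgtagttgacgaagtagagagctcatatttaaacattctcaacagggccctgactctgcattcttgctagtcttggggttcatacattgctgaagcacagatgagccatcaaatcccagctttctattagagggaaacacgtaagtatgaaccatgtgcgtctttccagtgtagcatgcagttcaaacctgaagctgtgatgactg
None of the 5 motifs searched was found in it.

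Ell2 encodes a transcription elongation factor that in plasma cells favours the secreted form of the antibody heavy chain message. Its scaled signal (transcript NM_138953) was 0.0842 on the WT (−) array, 0.351 on the Bach2 KO (−) array, 2.81 on the WT (+) array and 6.68 on the Bach2 KO (+) array. The order of the arrays followed re-stimulation first and genotype second, and each step in it exceeded the spread between probes. That spread compares probes of a gene on the same arrays and does not measure variation between cultures. The difference between genotypes was 2.06 (log2, 4.17-fold) before re-stimulation and 1.25 (2.38-fold) after it. Re-stimulation went with a 33.4-fold higher level in WT cells and a 19.0-fold higher level in Bach2 KO cells. The second probe of Ell2 gave log2 values of 1.99 and 1.21 for the genotypes and 4.60 and 3.82 for re-stimulation, in the same directions.

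Sdc1 encodes syndecan-1, the surface proteoglycan (CD138) by which plasma cells are commonly identified. Its probe (transcript NM_011519) gave scaled signals of 0.0728 on the WT (−) array, 0.0600 on the Bach2 KO (−) array, 0.204 on the WT (+) array and 1.19 on the Bach2 KO (+) array. Of the 4 arrays the Bach2 KO (+) array thus stood apart. The difference between genotypes was -0.28 (log2) before re-stimulation, between signals of 31.8 and 26.0 that lie close to the lowest measurable ones, and 2.54 (5.83-fold) after it. Re-stimulation went with a 2.80-fold higher level in WT cells and a 19.8-fold higher level in Bach2 KO cells. The log2 response in Bach2 KO cells exceeded that in WT cells by 2.82, which is also, by construction, the gap between its differences between genotypes. That gap was 0.67 for Prdm1 and -0.81 for Ell2, and within 0.27 of 0 for the other 4 genes, without a test in any case.

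Pou2af1 encodes OCA-B, a coactivator that joins Oct proteins on the octamer of antibody gene promoters and that T cells also make on activation. Its scaled signal (transcript NM_011136) was 1.68 on the WT (−) array, 1.19 on the Bach2 KO (−) array, 59.8 on the WT (+) array and 42.8 on the Bach2 KO (+) array. Both re-stimulated arrays were far above both others, 35.6-fold in WT cells and 35.8-fold in Bach2 KO cells. Its level was lower on the Bach2 KO array, with log2 differences of -0.49 before re-stimulation and -0.48 after it, short of the 2-fold rule. Its promoter is shown because it held the only match among the 7 promoters to TGACGTGG, the letters bound by Xbp1 in the unfolded protein response, set in capitals.
Pou2af1 promoter, chr9:51213440-51213689, plus strand: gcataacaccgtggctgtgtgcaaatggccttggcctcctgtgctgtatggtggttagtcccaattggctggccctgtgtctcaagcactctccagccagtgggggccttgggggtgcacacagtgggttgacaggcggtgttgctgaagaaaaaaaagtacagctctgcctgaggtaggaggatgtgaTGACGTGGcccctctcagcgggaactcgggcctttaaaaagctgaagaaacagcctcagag
The match begins 61 bases before the start of the gene, and 0.563% of all promoters of this length held one. The octamer ATGCAAAT was in 1.6% of promoters and in none of the 7.

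Xbp1 encodes the transcription factor whose message is spliced under endoplasmic reticulum stress and which plasma cells need for secretion. The scaled signal of its probe (transcript NM_013842) was 4.66 on the WT (−) array, 5.02 on the Bach2 KO (−) array, 4.19 on the WT (+) array and 5.44 on the Bach2 KO (+) array. The arrays covered a narrow range, with differences between genotypes of 0.11 and 0.38 (log2). Whether the probe separates the spliced from the unspliced message was not known. Cd38 encodes the NAD-degrading surface enzyme CD38. Its 2 probes (transcript NM_007646) gave signals between 3.55 and 14.9, well above background on none of the arrays, so no difference is given.

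Counted together, 4 of the 7 measured genes were at least 2-fold higher on the Bach2 KO array before re-stimulation and none was 2-fold lower, where 5.26% of all genes compared were 2-fold higher and 2.82% lower. After re-stimulation 5 of the 7 were 2-fold higher and none lower, where 5.17% of all genes were higher and 3.85% lower. The median log2 difference of the 7 was 1.31 before and 1.98 after re-stimulation, and that of all genes 0.00 and 0.02. On re-stimulation, Sdc1, Pou2af1 and Ell2 were at least 2-fold higher in both genotypes, 3 of 7, where 13.2% of all genes were higher in WT cells and 12.4% in Bach2 KO cells. No gene of the 7 was 2-fold lower on re-stimulation, against 13.5% of all genes in WT cells and 13.0% in Bach2 KO cells. With normexp background correction (offset 50) and quantile normalization, which compress low signals, the differences between genotypes before re-stimulation became 2.74 for Mzb1, 3.12 for Jchain, 1.08 for Ell2 and 0.99 for Prdm1 (log2), the last short of 2-fold, and that of Mzb1 after it became 2.64. The differences on re-stimulation became 0.56 for Sdc1 and 3.53 for Ell2 in WT cells, and 2.54 for Sdc1 in Bach2 KO cells. As the genes were picked with these values known, nothing is read from these counts beyond the counts themselves. The comparisons share arrays in pairs, each array entering both a difference between genotypes and a difference on re-stimulation.

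**Figure D2:**
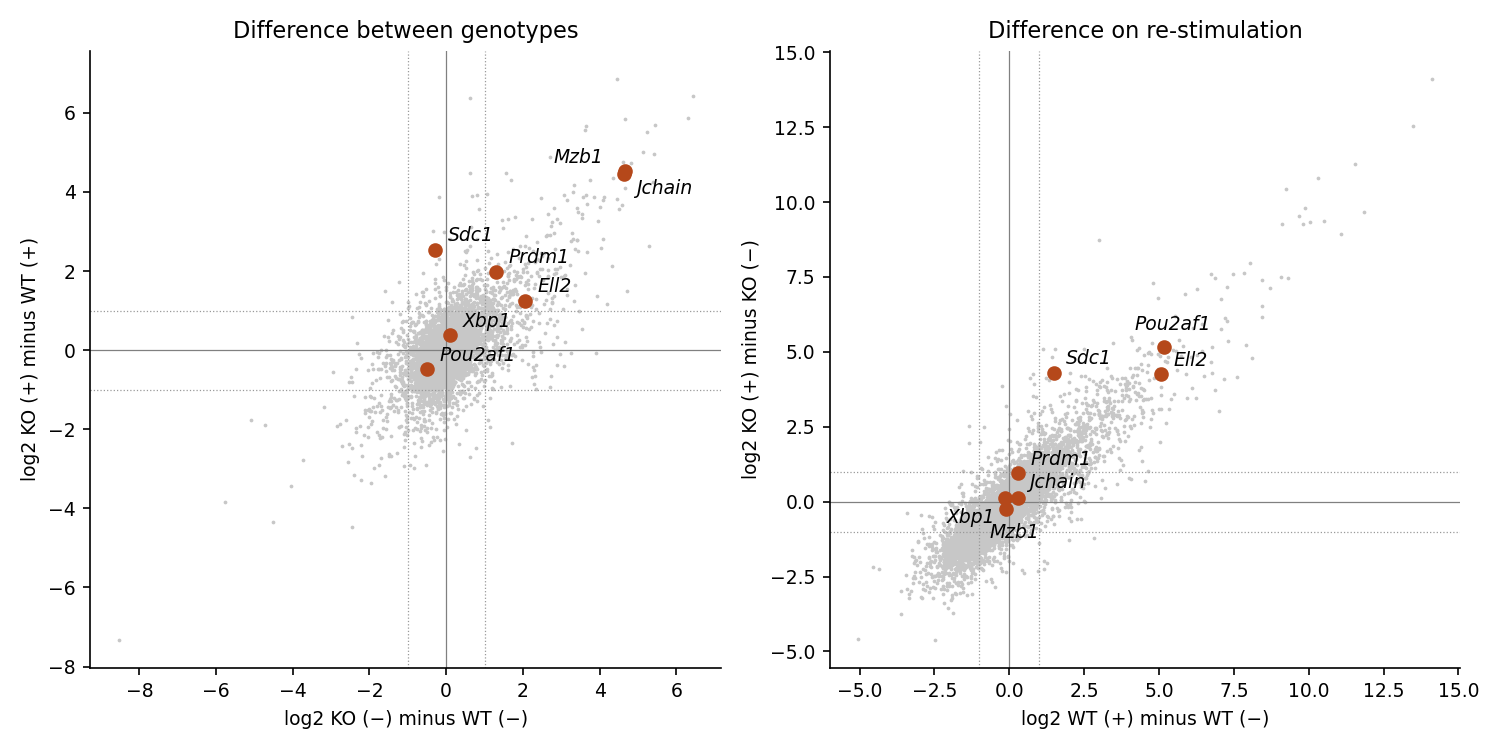
Log2 differences of all genes compared (grey) with the 7 measured plasma cell genes (orange); dotted lines mark 2-fold. Left, Bach2 KO minus WT before (horizontal) against after re-stimulation (vertical), where Mzb1 and Jchain lie above 4 on both axes and Sdc1 at -0.28 and 2.54. Right, re-stimulated minus unstimulated in WT (horizontal) against Bach2 KO cells (vertical), where Pou2af1 lies at 5.15 and 5.16 and Sdc1 off the diagonal at 1.48 and 4.31.

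Other genes of plasma cells were taken as a list of 15. Of the 14 that could be compared before re-stimulation, 3 were 2-fold higher on the Bach2 KO array and none lower. Over all genes compared these shares were 5.26% and 2.82%. The median of all genes was 0.00 (log2) and that of the list 0.57. Of 13 after re-stimulation, 4 were 2-fold higher and none lower, against 5.17% and 3.85% of all genes. The median of all genes was then 0.02 and that of the list 0.39. The largest differences were those of Tent5c, a poly(A) polymerase of secretory cells, at 1.90 and 2.34, and of Derl3, a component of protein disposal from the endoplasmic reticulum, at 1.81 and 1.56. Bhlha15, the secretory cell transcription factor Mist1, gave 1.65 and 1.78 on the probe read for it, but -0.07 and -0.15 on a second probe, so its difference rests on 1 probe. Tnfrsf17, the plasma cell survival receptor BCMA, was well above background on none of the arrays. Irf4, the factor that acts with Blimp-1 in plasma cells and is induced by TCR signals, was chosen after its values were seen. It differed by 0.73 (log2) between genotypes before re-stimulation and by -0.35 after it.

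The unfolded protein response, the programme that Xbp1 shares, was read on 21 genes, all well above background on all 4 arrays. Before re-stimulation 1 gene was 2-fold higher on the Bach2 KO array and none lower, with a median of 0.38 (log2) and 18 genes above 0. After re-stimulation 1 was 2-fold higher and none lower, with a median of 0.52 and all 21 above 0. The counts past 2-fold were thus near the shares of all genes, 5.26% higher before and 5.17% higher after re-stimulation. The differences were therefore small and mostly of one sign. Before re-stimulation the largest were Ern1, the stress sensor IRE1 that splices the Xbp1 message, at 1.08, the chaperone cofactor Dnajb9 at 0.79 and the sensor Atf6 at 0.78. After it the largest were Herpud1, a membrane protein of protein disposal, at 1.04, Sdf2l1 at 0.95 and Dnajb9 at 0.92.

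In T cells Blimp-1 is linked to a set of cytokine, receptor and memory genes, of which 20 were listed. Before re-stimulation 8 of 19 were 2-fold higher on the Bach2 KO array and 3 lower, against 5.26% and 2.82% of all genes. After it 8 of 20 were higher and 3 lower, against 5.17% and 3.85%. Il10, a cytokine that Blimp-1 favours in T cells, was at least 25.1-fold higher before re-stimulation and 57.8-fold higher after it. Klrg1, a receptor of terminally differentiated cells, was higher by 3.54 and 3.45 (log2), and Havcr2, the inhibitory receptor Tim-3, was 8.55-fold higher before re-stimulation. Il21 was 17.8-fold higher after re-stimulation and was not well above background before it. Il2, which Blimp-1 is known to repress, was chosen after its values were seen. Its scaled signal was 120 on the WT (+) array and 95.7 on the Bach2 KO (+) array, a log2 difference of -0.33 that fell short of 2-fold. Il7r and Ccr7 of the same list, also chosen after their values were seen, went in opposite directions. Il7r differed by 3.08 before and 1.88 after re-stimulation, and Ccr7 by -2.24 and -1.91.

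Genes known to act upstream of Prdm1 were listed as 20 regulators, repressors and activators alike. Before re-stimulation 4 of 19 were 2-fold higher on the Bach2 KO array and none lower, against 5.26% and 2.82% of all genes. After it 3 were higher and 1 lower, against 5.17% and 3.85%. Maf, a transcription factor of IL-10-producing and follicular helper T cells, was 25.1-fold higher before and 17.2-fold higher after re-stimulation. The AP-1 factor Batf3 was higher by 1.77 and 1.75 (log2). Fosl1 was higher by at least 1.09 before re-stimulation, and Fos was 2.63-fold lower after it. Pax5, the factor of B cell identity, was well above background on none of the arrays.

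Partners and paralogues of the 8 genes, such as the Oct factors bound by OCA-B, the other syndecans and the elongation complex of Ell2, were 14 genes. Before re-stimulation 3 of 12 were 2-fold higher on the Bach2 KO array and 1 lower, against 5.26% and 2.82% of all genes. After it none of 11 was either, against 5.17% and 3.85%. Before re-stimulation Ell3 was at least 3.47-fold lower, and Sdc4 and Aff4 were higher by 1.37 and 1.32 (log2). After it the largest differences were those of Sdc3 at 0.73, Aff4 at 0.60 and Eaf1 at 0.60. The median of the list was 0.03 before and 0.09 after re-stimulation.

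On re-stimulation the other plasma cell genes were 2-fold higher in 4 of 13 in WT cells, with 1 lower, and in 7 of 14 in Bach2 KO cells, with none lower. Over all genes compared, 13.2% were 2-fold higher and 13.5% lower in WT cells, and 12.4% and 13.0% in Bach2 KO cells. Irf4, Creb3l2, a transcription factor of the secretory pathway, and Slamf7, a surface receptor abundant on plasma cells, differed most in both genotypes. Irf4 was 15.3-fold higher in WT cells and 7.24-fold higher in Bach2 KO cells, Creb3l2 6.80-fold and 9.46-fold, and Slamf7 6.48-fold and 7.87-fold. Of the unfolded protein response genes 4 of 21 were 2-fold higher and 1 lower in WT cells, and 3 higher and none lower in Bach2 KO cells. The counts of higher genes in this list were not far from the shares of all genes. Of the regulators of Prdm1 13 of 19 were higher in WT cells and 11 of 19 in Bach2 KO cells, with none lower, while Prdm1 itself passed 2-fold in neither. Pou2f2, which encodes Oct-2, the partner of OCA-B in B cells, was 13.7-fold and 17.7-fold higher, in the same direction as Pou2af1.

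**Figure D3:**
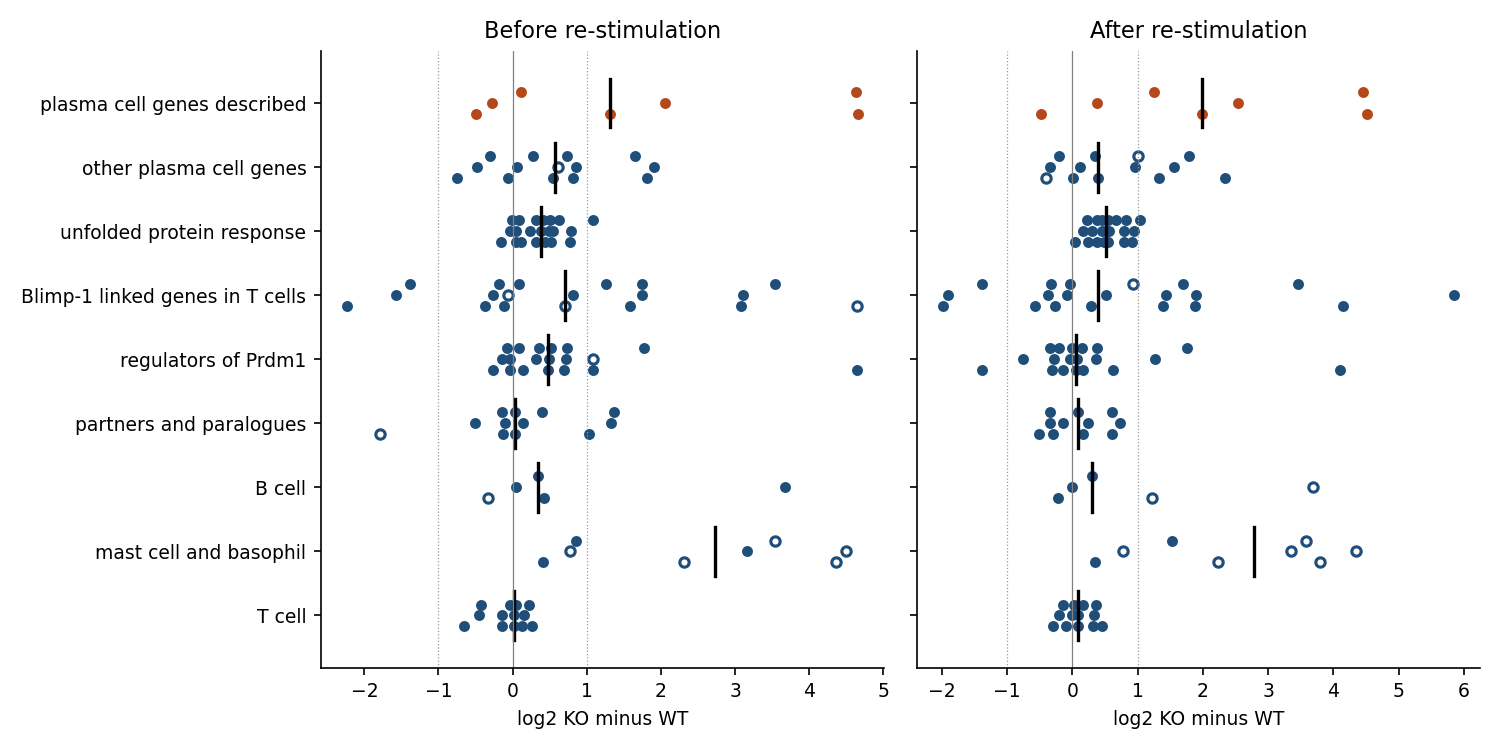
Log2 difference Bach2 KO minus WT of each gene, by list, before (left) and after (right) re-stimulation. Each point is 1 gene, open points are bounds where 1 array was not well above background, black bars are medians and dotted lines mark 2-fold. The 7 plasma cell genes have medians of 1.31 and 1.98, the T cell genes 0.02 and 0.08.

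Markers of other cells were read beside these values. Of 11 B cell genes, 5 were well above background on none of the arrays, among them the defining markers Ms4a1, Cd79a, Cd22 and Pax5. Over the list the summed scaled signal was 1.73 on the WT (−) array, 2.34 on the Bach2 KO (−) array, 0.85 on the WT (+) array and 1.56 on the Bach2 KO (+) array. Of the 5 B cell genes compared before re-stimulation 1 was 2-fold higher, Blnk, the adaptor of the B cell receptor, at 12.8-fold. Its signal on the WT (−) array was 17.5, close to the lowest measurable one of 15.1. Over all genes compared, 5.26% were 2-fold higher before re-stimulation and 5.17% after it. Ciita, the activator of MHC class II genes, differed by 0.34 (log2). After re-stimulation Blnk was at least 12.8-fold higher, Ebf1 at least 2.33-fold higher and Cd79b differed by 0.30. Immunoglobulin transcripts, the product by which a plasma cell is known, were not analysed here.

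Several genes of mast cells and basophils were higher on both Bach2 KO arrays, as were Mzb1 and Jchain. Of 13 with a probe, 8 were well above background on both Bach2 KO arrays, and 5 of these were 2-fold higher before re-stimulation and 6 after it. Over all genes 5.26% and 5.17% were 2-fold higher. The counts use the probe read for each gene. Cd200r3 differed by 0.41 and 0.34 (log2) on that probe, but by 4.65 and 3.84 without a floor on a second probe, well above background on 2 arrays. Before re-stimulation the largest differences were those of the proteases Cpa3, at least 22.5-fold, Mcpt8, at least 20.5-fold, and Cma1, at least 11.6-fold. After it they were those of Mcpt8, at least 20.3-fold, Prss34, at least 13.8-fold, and Cpa3, at least 11.9-fold. Fcer1a, the ligand-binding chain of the high-affinity IgE receptor, was at least 4.94-fold higher before and at least 4.68-fold higher after re-stimulation. The other 5, with the Ms4a2 chain of the same receptor among them, were well above background on none of the arrays. The summed scaled signal was 0.598 on the WT (−) array, 3.51 on the Bach2 KO (−) array, 1.59 on the WT (+) array and 6.10 on the Bach2 KO (+) array. The part of these cells, or of B cells, in the plasma cell gene values was not tested. Myeloid genes with a probe were 7, of which 2 of the 4 compared before re-stimulation and both of the 2 compared after it were 2-fold higher on the Bach2 KO array. S100a9, a calcium-binding protein of neutrophils and monocytes, was at least 9.94-fold and at least 6.95-fold higher, and Adgre1, a macrophage surface receptor, 2.23-fold and 2.95-fold higher. Lyz2, Itgam and S100a8 were well above background on none of the arrays. The summed myeloid signal was 0.533 on the WT (−) array, 1.43 on the Bach2 KO (−) array, 0.29 on the WT (+) array and 0.905 on the Bach2 KO (+) array, and its part in the plasma cell gene values was likewise not tested.

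The genes whose 4 levels ran closest to each plasma cell gene were found by Euclidean distance between log2 levels, each centred on its own mean over the 4 arrays, among 10810 genes well above background on all of them. With 4 points each, such likeness is a description. Closest to Prdm1 were Car13, a carbonic anhydrase, at a distance of 0.26, Cdc42bpa at 0.33, Gsdme at 0.37, Pomgnt2 at 0.37 and Slc16a10, an aromatic amino acid transporter, at 0.39. Asb2, a ubiquitin ligase subunit, was closest to both Mzb1 (0.61) and Jchain (0.69). Both also shared Ctsg, a protease of mast cells and neutrophils, Itgae, the integrin chain CD103, and the granzyme Gzmd among their 5 closest, to which Mzb1 added 4932438H23Rik and Jchain Klrg1. Apart from Asb2, the distances were 0.91 to 1.09 for Mzb1 and 0.71 to 1.12 for Jchain. All of these genes hold both Bach2 KO arrays above both WT arrays.

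Nearest to Sdc1 were Fam43a (0.76), Adarb1, an RNA editing enzyme (0.79), Akr1c18 (0.80), Ccno (0.88) and Fgf18 (0.93). Of these, Adarb1 and Akr1c18 were higher by 2.80 and 2.82 (log2) on the Bach2 KO (+) array than on the WT (+) array. Pou2af1 ran with Plk2 (0.38), Gch1 (0.45), Tmem88 (0.45), Tnfsf11, the cytokine RANKL (0.46), and Slc9b2 (0.61). Ell2 ran with Ncs1, a calcium sensor (0.53), Phlda1 (0.64), Smim3 (0.72), Chst11 (0.74) and Pdcd1lg2, the ligand PD-L2 (0.74). The last 2 sets share high levels on both re-stimulated arrays.

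**Figure D4:**
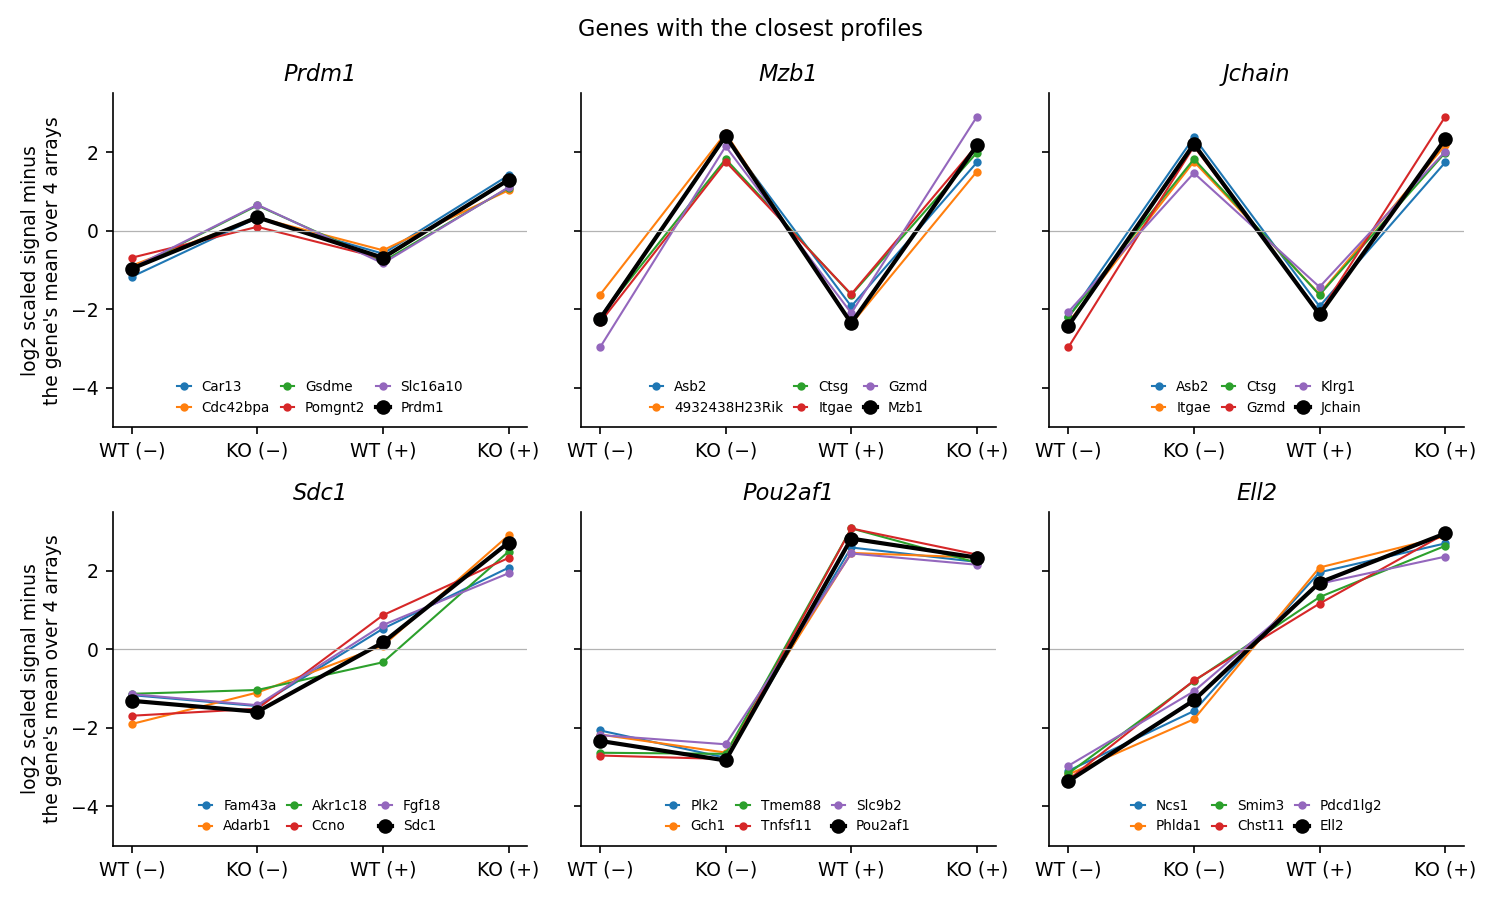
Log2 scaled signal of 6 plasma cell genes (black) and of the 5 genes with the closest profiles (coloured) on the 4 arrays, each gene centred on its own mean. The genes near Mzb1 and Jchain alternate with genotype, those near Pou2af1 and Ell2 step up with re-stimulation, and those near Sdc1 lie highest on the Bach2 KO (+) array.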

How the data were processed

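RNA of 4 cultures was hybridised to Agilent whole mouse genome arrays with 1 dye, 1 array per condition. The authors deposited spot intensities (Feature Extraction 10.7.3.1), background-subtracted and detrended by that software, with flags for uneven spots and spots well above background, and a table of log2 values that, for all but a few probes, equal those intensities on the log2 scale less the array's 75th percentile. No array method is given in the paper.

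Spots flagged as uneven or outliers (107 to 120 per array) were dropped, log2 values of a probe's spots averaged, and each array's 75th percentile taken off. Of 41173 probes, 27479 (66.7%) matched a RefSeq gene table (GRCm38.p6, names only) by accession. A gene was read from its brightest probe. It entered a comparison when well above background (in most of its spots) on at least 1 array, with the dimmer value raised to the lowest measurable one of its array. Genes were counted at 2-fold, without tests. The spread was the median SD of log2 differences between probes of a gene, 0.09 to 0.15 by comparison.

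The members and lists were chosen with earlier results of these data known. Genes named are the 8 members, the 3 largest differences of a list in a comparison described, and the 5 closest profiles of each measured member that spanned at least 1 (log2). Further markers of other cell types were named after their values were seen, and Y-linked genes are given as counts. The scripts were tested on simulated data. The 11 alternatives were other scalings (median, quantile, Cd3e, bright probes), normexp with offset 50, the authors' log2 values, the mean over probes, other filters, and 1.5-fold and 3-fold rules. Python 3.11.15, numpy 2.4.6, pandas 2.3.3, R 4.3.3 and limma 3.58.1 were used.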

Additional observations from a re-analysis of the deposited data

Results flagged for a closer look

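Sdc1 stood out because its difference between genotypes was unlike at the 2 times, -0.28 (log2) before re-stimulation and 2.54 after it. The difference between these values was not tested, as each condition had 1 array. The value before re-stimulation rests on 1 spot per array near the lowest measurable signals. The scanner software put their errors at 14.0% on the WT (−) array and 16.5% on the Bach2 KO (−) array, so its direction is not settled. Over the settings tried it ranged from -0.34 to -0.07, and the value after re-stimulation from 1.92 to 2.64. All settings reuse the same spots, so a constant sign is no check of it.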

How the results depend on the processing

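No paired analysis was possible because each condition had 1 array, and for the same reason no array could be left out. Of 88 counts of plasma cell genes past a fold rule, 87 stayed within 1.5 times of the reported count. This is a weak check, because the reported counts were 3 to 5 higher and 0 lower, and the rule passes the loss of 1 gene. Sdc1 was lost in this way on re-stimulation in WT cells with the normexp correction (0.56, log2). The exception was the number at least 2-fold lower on re-stimulation in WT cells, which was 1 (Cd38) in place of 0 with no filter and no floor. The gene past 2-fold is not always the same at each setting: normexp correction left Prdm1 just short of 2-fold before re-stimulation (0.99, log2), and scaling to Cd3e brought it past 2-fold on re-stimulation in Bach2 KO cells (1.20). Among the differences between genotypes, no plasma cell gene changed sign, with ranges of 2.74 to 4.80 before and 2.64 to 4.70 after re-stimulation for Mzb1, 3.12 to 4.77 and 3.15 to 4.56 for Jchain, 1.08 to 2.20 and 1.15 to 1.35 for Ell2, and 1.65 to 2.08 after re-stimulation for Prdm1. On re-stimulation, values near 0 changed sign. In WT cells Prdm1 was -0.021 and Jchain -0.00042 with scaling to the median, and with scaling to Cd3e Xbp1 was 0.14 and Mzb1 0.19, Mzb1 also 0.076 in the authors' log2 values. In Bach2 KO cells Xbp1 was -0.15 and Jchain -0.14 with scaling to the median, and Mzb1 0.014 with scaling to Cd3e. The B cell median changed to -0.0089 after re-stimulation, and on re-stimulation in Bach2 KO cells to -0.3, where both arrays had to be well above background, and to -0.044 with scaling to the median. The myeloid median on re-stimulation in WT cells became -0.041 with scaling to the median, -0.15 with quantile normalization and -0.081 with normexp and quantile normalization. The scaling moved the balance on re-stimulation. Of the genes past 2-fold, 49.3% were higher in WT cells and 48.9% in Bach2 KO cells, against 29.1% and 30.8% with scaling to the median, which shifted the median of all genes to -0.30 and -0.26, and 71.5% and 67.7% with scaling to Cd3e, which shifted it to 0.29 and 0.26. Low levels limit the folds of Mzb1, Jchain, Ell2 and Sdc1. With the normexp correction the difference on re-stimulation in Bach2 KO cells was 2.54 for Sdc1, and that in WT cells 3.53 for Ell2 and 0.56 for Sdc1.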
